A study of Homo sapiens with 8 samples.

Results

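The MCM helicase and origin licensing genes described here are MCM2, MCM3, MCM4, MCM5, MCM6, MCM7, MCM10, CDC45, CDT1 and CDC6. They were identified by gene symbol, and each of the 10 symbols matched 1 gene in every library, out of 60605 gene identifiers and 19942 protein-coding genes. The study sequenced RNA from 8 libraries of cultured human colorectal cancer cells, with 2 libraries in each of 4 groups. HCT116 is an established colorectal cancer line with both UHRF1 alleles intact, and UF1hypo is a heterozygous HCT116 clone (UHRF1+/−-7) from which exon 4 of 1 UHRF1 allele was removed by Cas9-directed recombination and transient Cre. UHRF1 is the protein that reads hemimethylated DNA behind the replication fork and brings the maintenance DNA methyltransferase to it. A lentivirus gave each line a short hairpin RNA, which was shScr in the controls and shUHRF1 in the knockdown, and every group was a puromycin-resistant pool. The comparisons asked how a lower UHRF1 level changed expression in cells that began with a full or with a reduced dose of the gene. UF1hypo is 1 clone, so its genotype and its clonal history cannot be told apart. The harvest day of these libraries is not given in the sources used here. Nothing in the labels says that replicates were separate cultures, so the p-values measure only the spread between these libraries, which may be technical.

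Replication is prepared in G1 phase, when the origin recognition complex, CDC6 and CDT1 load rings of MCM2 to MCM7 onto DNA, a step called licensing. In S phase CDC45 and the GINS complex join a loaded ring to make the active helicase, with the help of MCM10, and geminin and protein turnover keep CDT1 from licensing the same origin again. Many of these genes are known targets of E2F transcription factors, and their products mark dividing cells in intestinal crypts and in colorectal tumours.

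The promoters of these genes are shown first, because many of the genes are known E2F targets. Whether E2F factors had a part in the levels below was not tested. RefSeq promoter windows on GRCh38.p14, each running from 250 bases before to 50 bases after a start site, were matched for 8 of the 10 genes with 12 windows, and none was matched for MCM4 or MCM5. The E2F words searched on both strands were TTTCCCGC, TTTCGCGC, TTTGCCGC and TTTGGCGC, and words on opposite strands can overlap in their GCGC letters. At least 1 such word stood in 6 of the 12 windows, those of MCM2, MCM3, MCM6, MCM7, CDT1 and CDC6, and in 3.31% of all 35116 promoter windows of the same 300 bases. The words were not in the windows of MCM10 and CDC45, and for MCM7 they were in the window of 1 of its 3 start sites. The word CCAAT, which shares 1 base with an E2F word in the MCM7 window, was found for 6 of the 8 genes in at least 1 window, and TTTGAA for 0 of the 8, while single windows held them in 34.6% and 15.2% of all promoters. The stretches below hold the E2F words nearest to the start site, with those words in capitals and positions counted from the start site. They are descriptions of letters, and binding was not measured.
MCM6, chr2:135876510-135876607, minus strand, −164 to −67: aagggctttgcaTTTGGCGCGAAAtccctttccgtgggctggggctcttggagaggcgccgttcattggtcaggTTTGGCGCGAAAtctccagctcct
MCM2, chr3:127598401-127598436, plus strand, −10 to 26: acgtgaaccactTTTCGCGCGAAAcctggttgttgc
MCM3, chr6:52284727-52284758, minus strand, −16 to 16: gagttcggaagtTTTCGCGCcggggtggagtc
MCM7, chr7:100101387-100101418, minus strand, −21 to 11: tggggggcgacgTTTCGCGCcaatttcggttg
CDT1, chr16:88803742-88803773, plus strand, −47 to −16: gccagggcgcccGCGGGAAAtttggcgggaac
CDC6, chr17:40287874-40287905, plus strand, −5 to 27: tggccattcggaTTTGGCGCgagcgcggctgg
MCM6 had 4 words in its stretch, as 2 blocks in which TTTGGCGC overlaps TTTCGCGC of the opposite strand, MCM2 had TTTCGCGC on both strands of 1 block, and the other 4 genes had 1 word each, which for CDT1 lies on the opposite strand.

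The libraries held between 5.42 and 7.83 gigabases of aligned sequence. Levels are in TPM, the read coverage per base of gene length scaled to a total of 1000000 in each library, so they can be set side by side between genes. Groups are listed in 1 order throughout, namely the control and then the knockdown of HCT116, followed by the control and then the knockdown of UF1hypo. UHRF1, the target of the hairpin, stood at 87.5 and 98.4, 31.7 and 32.7, 47.3 and 50.6, and 34.1 and 21.1 TPM, so that it was lower in every knockdown library than in the controls of its line and lower in UF1hypo than in HCT116 under shScr, as labelled. Of 8 colon epithelium markers 6 had more than 1 TPM in each group. The summed level of the 8 was 3039 to 3040, 4013 to 4156, 6215 to 6254 and 7016 to 8799 TPM, most of it KRT8 and KRT18. CDX1 was at 0 in the first 3 groups and VIL1 at no more than 0.14 TPM in any library. The markers did not move together. EPCAM was at 363 and 372 TPM in HCT116 shScr and at 174 and 314 in UF1hypo shUHRF1, while CDH1, KRT20 and CDX2 were higher in UF1hypo shUHRF1 than in HCT116 shScr. Of 13 markers of leukocytes, fibroblasts, endothelium and erythroid cells between 1 and 6 were at 0 in a group, and their summed level was 22.1 to 24.4, 24.2 to 28.5, 23.4 to 29.0 and 39.9 to 68.6 TPM, most of it COL1A1. The part of these markers in the values below was not tested. The UF1hypo shUHRF1 libraries stood apart from each other. Across all 19942 protein-coding genes, silent ones included, the log2 values of a group's replicates had a Pearson r of 0.979 there. In the other groups it was 0.995 to 0.996.

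All 10 genes were above 10 TPM in every library. The ring subunits MCM2, MCM3, MCM4, MCM5 and MCM7 lay no lower than the 92.3 percentile of the 13781 protein-coding genes that exceeded 1 TPM in at least 1 library, whichever library was read. MCM7 was the highest of the 10 genes in every library, from 390.5 to 665 TPM, and MCM10 the lowest, from 14.6 to 32.8 TPM. MCM2, MCM3, MCM4, MCM5 and CDT1 exchanged ranks 2 to 6 between libraries, within 121 to 283 TPM, so no order among them held throughout. MCM6, CDC45 and CDC6 took ranks 7 to 9, and MCM6 was at rank 7 in all libraries but UF1hypo shUHRF1 replicate 1, where CDC45 passed it.

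**Figure D1:**
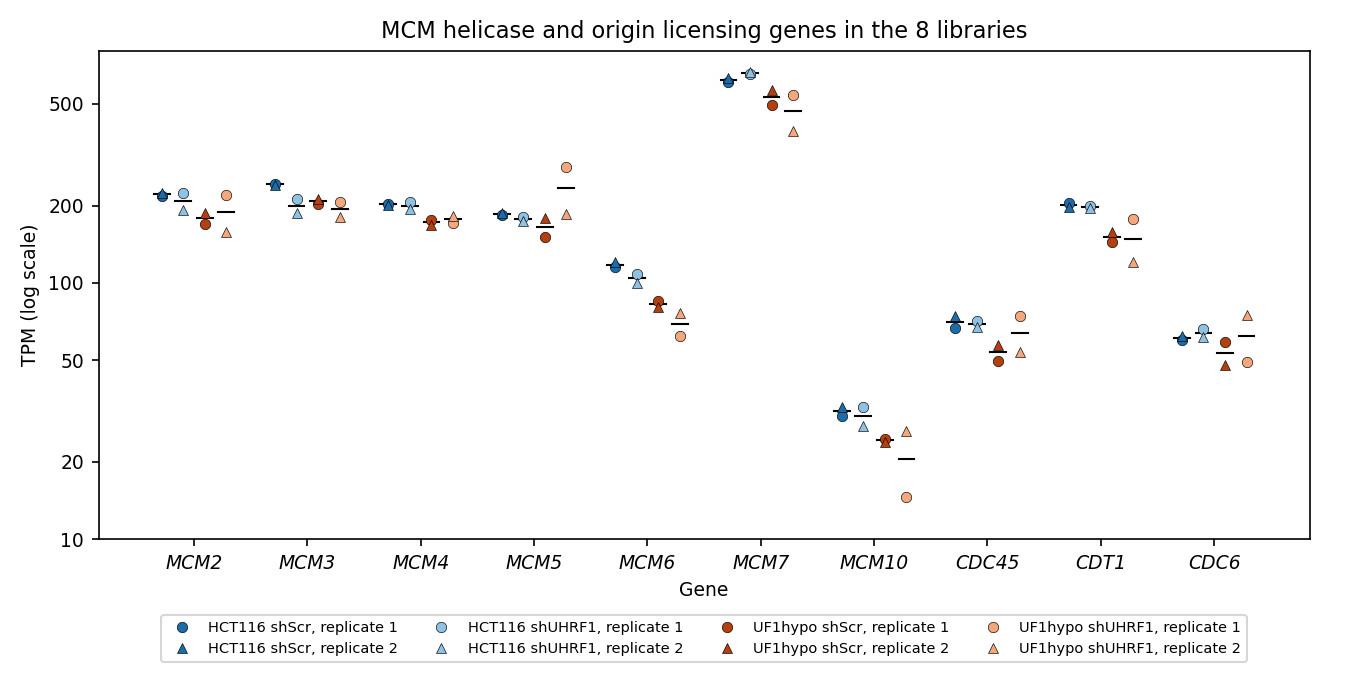
Levels of the 10 genes in TPM on a logarithmic axis, with 1 point for each of the 8 libraries (circles for replicate 1, triangles for replicate 2) and a bar at the mean of each group of 2. MCM7 is on top with 390.5 to 665 TPM and MCM10 at the bottom with 14.6 to 32.8 TPM, every UF1hypo shScr point lies below both HCT116 shScr points of its gene, and the points of UF1hypo shUHRF1 are spread widest except for MCM4.

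The ring subunits are given singly, with replicate 1 of a group before replicate 2. MCM2 (ENSG00000073111.14, chr3:127598410-127622436, plus strand, GRCh38), whose N-terminal tail also binds histones, was at 219 and 225, 225 and 193, 169.9 and 187, and 220.4 and 159 TPM. MCM3 (ENSG00000112118.20, chr6:52264014-52284881, minus strand) was at 244 and 241, 212 and 187, 203 and 213, and 207 and 180.2 TPM. MCM4 (ENSG00000104738.18, chr8:47960185-47978160, plus strand) was at 203 and 202, 206 and 194, 177 and 168, and 172 and 182 TPM. For these 3 subunits both UF1hypo shScr libraries were below both HCT116 shScr libraries, and for MCM4 all 4 UF1hypo libraries were below all 4 HCT116 libraries. MCM5 (ENSG00000100297.16, chr22:35400134-35425431, plus strand), which pairs with MCM2 at the gate of the ring, was at 184 and 187, 180.4 and 174, 151 and 179.9, and 283 and 186 TPM. MCM6 (ENSG00000076003.5, chr2:135839626-135876443, minus strand) was at 115 and 120.4, 109 and 99.9, 85.1 and 80.2, and 62.3 and 76.3 TPM. MCM7 (ENSG00000166508.18, chr7:100092728-100101940, minus strand) was at 609.8 and 628, 652 and 665, 493 and 568, and 543 and 390.5 TPM. The 283 TPM of MCM5 in UF1hypo shUHRF1 replicate 1 was its highest value, and MCM6 and MCM7 were lower in every UF1hypo library than in any HCT116 library. The MCM7 locus overlaps AP4M1 on the opposite strand over 392 of its 4960 exon bases, and AP4M1 was at 11.3 to 26.3 TPM. MCM2 likewise shares 1113 of its 4715 exon bases with an opposite-strand lncRNA that was at 0.473 to 4.19 TPM. Whether counting used strand is not given in the sources used here, so reads in these overlaps could not be told apart.

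The loaders and the activators of the ring follow. CDT1 (ENSG00000167513.9, chr16:88803789-88809258, plus strand), the licensing factor that brings MCM2 to MCM7 to the origin, was at 205 and 197, 199 and 196, 144 and 158, and 177 and 121 TPM. CDC6 (ENSG00000094804.12, chr17:40287879-40304657, plus strand), the ATPase that loads the ring with the origin recognition complex, was at 60.1 and 61.9, 66.2 and 61.4, 58.8 and 47.6, and 49.2 and 75 TPM. CDT1 was lower in all 4 UF1hypo libraries than in all HCT116 libraries, whereas CDC6 had its highest value of all in UF1hypo shUHRF1 replicate 2 and was below every HCT116 library in replicate 1. CDC45 (ENSG00000093009.11, chr22:19479457-19520612, plus strand), a subunit of the active helicase, was at 66.9 and 74.0, 70.8 and 67.6, 49.7 and 57.4, and 74.0 and 53.7 TPM. MCM10 (ENSG00000065328.17, chr10:13161558-13211110, plus strand), which is needed to start the loaded helicase, was at 30.3 and 32.7, 32.8 and 27.7, 24.7 and 24.0, and 14.6 and 26.3 TPM. MCM10 was lower in the 4 UF1hypo libraries than in the 4 HCT116 libraries, and CDC45 was not, because UF1hypo shUHRF1 replicate 1 stood at the top of the HCT116 range.

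With the control hairpin, all 10 genes were lower in UF1hypo than in HCT116, and none of these differences passed the test. The log2 fold changes of TPM + 1 ran from −0.51 for MCM6 to −0.17 for MCM5, with a median of −0.27, while the median over all 12856 genes tested was −0.05 and 55.4% of them had a negative value. In 10 of 10 genes both UF1hypo libraries were below both HCT116 libraries, and 37.2% of all tested genes showed that. In limma with Benjamini-Hochberg adjustment over all genes tested, 0 of the 10 passed an adjusted p of 0.05, against 4.78% of all genes, and 1 had an unadjusted p below 0.05. That gene was MCM6, with means of 118 ± 3.76 and 82.6 ± 3.46 TPM (SD, n = 2), a log2 fold change of −0.51 (SE 0.157, 95% confidence interval −0.86 to −0.15) and an adjusted limma p of 0.120. CDT1 followed with 201 ± 5.28 against 151 ± 10.1 TPM (SD, n = 2), a log2 fold change of −0.41 (SE 0.188) and an adjusted limma p of 0.292. CDC45 was at −0.39, MCM10 at −0.36, MCM2 at −0.31, MCM4 and MCM7 at −0.23, MCM3 at −0.22 and CDC6 at −0.20. In bulk RNA, fewer cells of a type, such as cells in S phase, and less RNA per cell cannot be told apart.

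The negative sign of all 10 genes in this comparison held under each of 16 other settings of the fit, with single values between −0.65 and −0.04, and the number that passed did not hold. With the 4 shScr libraries fitted alone, whose replicates were closer, 4 of the 10 passed (MCM2, MCM6, CDC45 and CDT1, adjusted limma p 0.0415, 0.00724, 0.0392 and 0.0157), against 23.9% of all genes. When the dependence of each library on GC and length was removed, 3 passed (MCM2, MCM6 and CDT1, adjusted limma p 0.00594, 0.0491 and 5.82e-04), against 15.9% of all genes. MCM6 and CDT1 had the largest differences in the main comparison too, but these fits compare the same shScr libraries, so this is not separate support. Exact permutation of 2 libraries against 2 cannot give a p below 0.33, so no such test was made for a single gene.

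Averaged over both hairpins, a comparison added after the data had been seen, UF1hypo had lower levels of 9 of the 10 genes, and 3 passed the test. These were MCM6 at −0.55 (SE 0.109, adjusted limma p 0.00715), CDT1 at −0.42 (SE 0.132, adjusted limma p 0.0423) and MCM7 at −0.37 (SE 0.121, adjusted limma p 0.0490), while 11.0% of all 13781 genes passed with a lower level, 19.3% with a higher level and 30.4% in either direction. MCM6 passed with any 1 of the 8 libraries left out, but MCM7 and CDT1 passed only when a UF1hypo shUHRF1 library was the one left out, and those fits passed many genes: 6 of the 10 and 38.5% of all without replicate 1, and 7 of the 10, of which MCM5 was higher, and 60.7% of all without replicate 2. MCM5 was the exception, at 0.10 (SE 0.142, 95% confidence interval −0.23 to 0.43), but it was at −0.10 with the GC and length correction, under which all 10 genes were negative and 8 passed, against 22.6% of all genes that passed with a lower level. The 4 UF1hypo libraries were all below the 4 HCT116 libraries for MCM4, MCM6, MCM7, MCM10 and CDT1, that is for 5 of the 10 genes, and for 12.9% of all genes. This comparison shares the shScr libraries with the one above, and the values are the genes' own in each.

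UHRF1 knockdown in HCT116 left the 10 genes close to their control levels. None of the 10 passed the test and 0 had an unadjusted p below 0.05. In this limma fit, which took the spread from all 8 libraries, 0.0708% of 12704 genes were called. With the HCT116 libraries fitted alone 515 genes were called, and with library weights 525. None of the 10 was called in either of these fits, and 1 of the 10 had an unadjusted p below 0.05 in each. UHRF1 itself was at −1.50 (SE 0.222, 95% confidence interval −2.0 to −0.995, adjusted limma p 0.0564). The values of the 10 genes ran from −0.28 for MCM3 to 0.09 for MCM7, with a median of −0.04 against −0.03 for all genes, and 8 of them were negative against 56.6% of all genes. Their 95% confidence intervals reached from −0.65 to 0.55, so the widest of them reached a 1.56-fold decrease. MCM3, with 243 ± 2.27 TPM under shScr and 199 ± 17.7 under shUHRF1 (SD, n = 2), had the largest difference, −0.28 (SE 0.143, 95% confidence interval −0.61 to 0.04, adjusted limma p 0.866). MCM6 was at −0.18 (SE 0.157). Both shUHRF1 libraries were below both shScr libraries for MCM3, MCM5 and MCM6, which 29.3% of all genes showed, and above them for MCM7, which 20.1% showed.

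UHRF1 knockdown in UF1hypo gave no shared direction in the main fit, with 5 of the 10 genes higher and 5 lower. None passed the test there, although 13.3% of 13620 genes did. With the dependence of each library on GC and length removed, 7 were lower and 3 higher, with a median of −0.17 against −0.01 for all genes. UHRF1 was at −0.84 (SE 0.221, adjusted limma p 0.0406). MCM5 had the largest value, from 165 ± 20.7 TPM under shScr to 235 ± 68.4 under shUHRF1 (SD, n = 2), a log2 fold change of 0.48 (SE 0.201, 95% confidence interval 0.02 to 0.94, adjusted limma p 0.167), and it was the only 1 of the 10 with an unadjusted p below 0.05. MCM10 stood at −0.30 (SE 0.259), MCM6 at −0.26 (SE 0.153), MCM7 at −0.20 (SE 0.172) and MCM3 at −0.11 (SE 0.139), with adjusted limma p-values between 0.320 and 0.666. CDC45 was at 0.24, CDC6 at 0.20, MCM2 at 0.07, MCM4 at 0.04 and CDT1 at −0.04. The median of the 10 was −0.00 and that of all genes 0.04. The groups did not overlap for MCM6, which was lower (18.3% of all genes), and for MCM5, which was higher (30.6% of all genes). None of the 10 genes passed the test of the difference between the knockdown effects in UF1hypo and in HCT116, which 5.22% of 13781 genes passed. For MCM5 that difference was 0.54 (SE 0.285, 95% confidence interval −0.11 to 1.19, adjusted limma p 0.372).

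**Figure D2:**
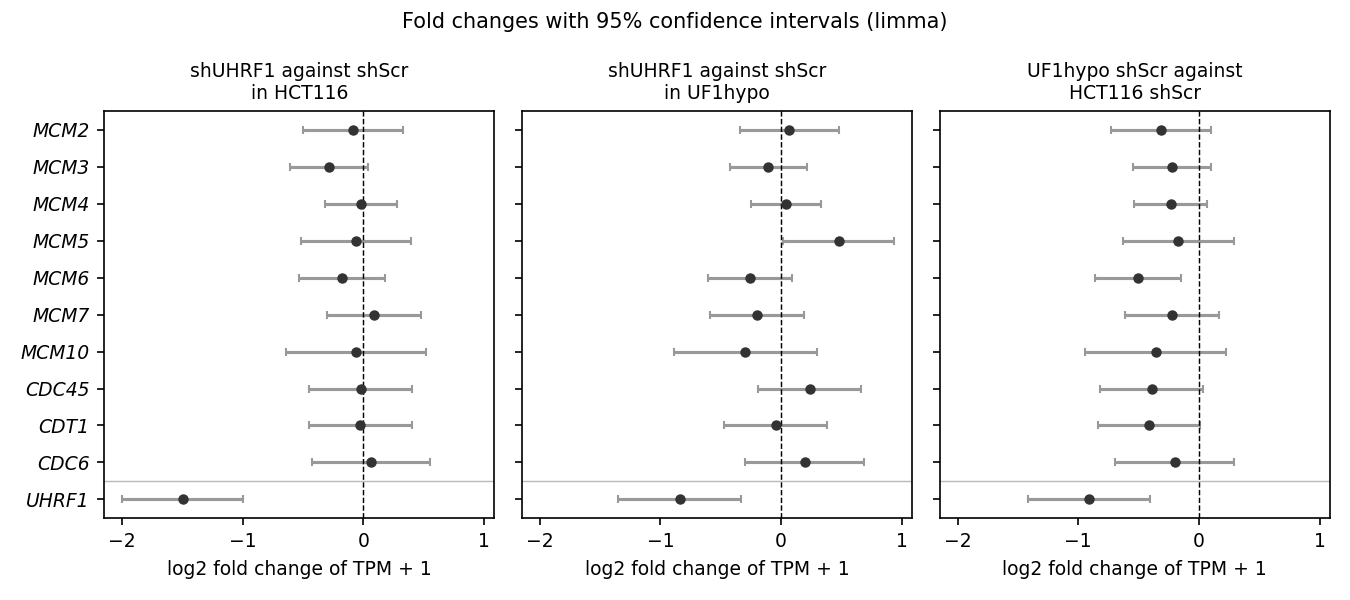
Log2 fold changes of TPM + 1 with 95% confidence intervals from limma for the 10 genes and, below the line, UHRF1, in 3 comparisons. All 10 points of the comparison of the lines lie left of 0, those of the knockdown in HCT116 lie between −0.28 and 0.09, and those of the knockdown in UF1hypo lie on both sides of 0, with MCM5 highest at 0.48.

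The values of the knockdown in UF1hypo differed between its replicates. Between the 2 UF1hypo shUHRF1 libraries, 7 of the 10 genes differed by more than 0.4 on the log2 scale, which none did between the replicates of the other 3 groups, and the median absolute difference was 0.47 against 0.04, 0.10 and 0.14 in the groups listed before it. The sign of the difference went with base composition. MCM2, MCM3, MCM5, MCM7, CDC45 and CDT1, with 51.2 to 64.3% GC in their transcripts, were higher in replicate 1, and MCM4, MCM6, MCM10 and CDC6, with 43.2 to 47.7% GC, were higher in replicate 2. MCM10, at 14.6 and 26.3 TPM and 43.7% GC, differed most, by 0.81 on the log2 scale. MCM5, at 283 and 186 TPM and 56.3% GC, differed by 0.60 in the other direction. Across the 10 genes Spearman's rho between GC content and the difference of replicate 2 from replicate 1 was −0.89. Across all 11500 protein-coding genes above 1 TPM in every library it was −0.87, with 0.58 in UF1hypo shScr and 0.04 and 0.06 in the HCT116 groups. These are correlations across genes of the same libraries, genes are not independent replicates, and whether base composition causes the spread was not tested.

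**Figure D3:**
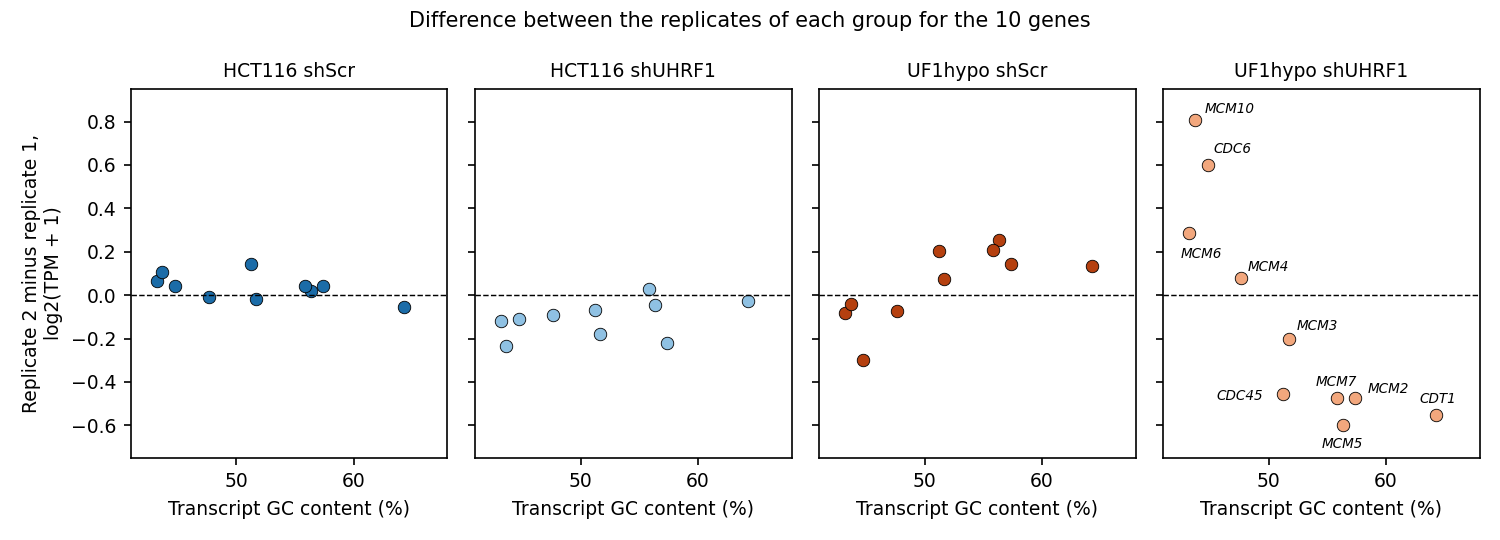
Difference between replicate 2 and replicate 1 of each group on the log2(TPM + 1) scale (vertical axis) against the GC content of the transcript in percent (horizontal axis), with 1 point for each of the 10 genes. The points of UF1hypo shUHRF1 descend from 0.81 for MCM10 to −0.60 for MCM5 as GC content rises, while those of the other groups stay within 0.3 of 0.

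Leaving out 1 of these 2 libraries changed which genes passed. Without UF1hypo shUHRF1 replicate 2, 4 of the 10 passed in the knockdown in UF1hypo, with MCM5 at 0.78, CDC45 at 0.46, MCM6 at −0.40 and MCM10 at −0.70 (adjusted limma p 0.00427, 0.0264, 0.0191 and 0.0110), and so did 47.6% of all genes. Without replicate 1, only MCM7 passed, at −0.44 (adjusted limma p 0.0363), while 19.4% of all genes did, with MCM5 at 0.18 and MCM10 at 0.11. In such a fit the lone library is taken to vary as the other groups do. With the GC and length correction, 2 genes passed, CDT1 at −0.34 (adjusted limma p 0.00690) and MCM7 at −0.35 (adjusted limma p 0.0292), while 30.9% of all genes passed, and MCM5 was at 0.28 (adjusted limma p 0.0941). With any 1 of the 4 UF1hypo libraries left out, MCM5 and CDC45 kept a positive sign and MCM3 and MCM6 a negative sign, whereas MCM2, MCM4, MCM7, MCM10, CDT1 and CDC6 changed sign at least once. The kept signs of CDC45 and MCM3 were narrow. CDC45 ran from 0.008 to 0.46. MCM3 in UF1hypo shUHRF1 replicate 1, at 207 TPM, lay between its UF1hypo shScr libraries at 203 and 213 TPM. MCM5 ran from 0.18 to 0.78 and MCM6 from −0.40 to −0.11.

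The 6 ring subunits enter the helicase in equal numbers, and their mRNAs were far from equal. The highest, MCM7, exceeded the lowest, MCM6, by 5.12 to 8.72 times within a library. The summed level of MCM2 to MCM7 was 1575 and 1604, 1585 and 1513, 1278 and 1397, and 1488 and 1174 TPM. Every UF1hypo library was thus below every HCT116 library in this sum. MCM7 supplied 39.0 ± 0.338%, 42.6 ± 1.98%, 39.6 ± 1.51% and 34.9 ± 2.28% of it (SD, n = 2). MCM5 supplied 11.7 ± 0.0339%, 11.5 ± 0.105%, 12.3 ± 0.773% and 17.4 ± 2.23% (SD, n = 2), with 19.02% and 15.9% in the UF1hypo shUHRF1 libraries. Both of these shares of MCM5 exceeded those of all other libraries, the highest of which was 12.9%, and with the GC and length correction they were 17.5% and 15.9%. MCM6 supplied 4.19% and 6.5% in UF1hypo shUHRF1 before that correction and 6.46% and 6.19% after it, against 6.40% and 6.66% in HCT116 shScr after it. MCM2 had between 12.8% and 14.8% in every library, MCM3 between 12.3% and 15.9%, and MCM4 between 11.6% and 15.5%.

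The genes that work with these 10 were set beside them in 9 lists of 104 genes, of which 103 were tested (MCMDC2 was not). Between the lines with the control hairpin, 1 of the 103 rose and 1 fell: CCND1, a G1 cyclin, at 0.80 (adjusted limma p 0.00889) and CDK6, a kinase that G1 cyclins activate, at −1.75 (adjusted limma p 0.00629). Of these, CCND1 did not pass with any of the 4 libraries left out (adjusted limma p 0.0961 to 0.130), and CDK6 passed only without UF1hypo shScr replicate 1 (adjusted limma p 0.0431). Most of the rest had negative values. All 15 helicase activation and fork factors were negative, with a median of −0.33, MTBP at −0.68 and DBF4, the activator of the CDC7 kinase, at −0.65. Of 23 replisome genes 22 were negative, with a median of −0.30, POLE2 at −1.04 and POLD4 at 0.70. The 8 licensing partners (the origin recognition complex, geminin and MCMBP) were all negative, with a median of −0.14, ORC6 at −0.35 and GMNN, which encodes geminin, at −0.32. For nucleotide supply 6 of 7 were negative with a median of −0.43 (RRM1 −0.57), and for proliferation and mitosis 11 of 12 with a median of −0.40 (CDK1 −0.76, TOP2A −0.63). E2F regulators and G1/S cyclins had a median of −0.22 with 16 of 19 negative. The turnover factors of CDT1 and geminin had a median of −0.08 with 6 of 9 negative (CUL4B 0.50, DTL −0.43), CDK inhibitors −0.11 with 5 of 7 negative (CDKN2C −0.61, CDKN1A 0.57), and the 3 MCM relatives outside the helicase −0.28 with all negative (MCM8 −0.56, MCM3AP −0.28). All genes tested had a median of −0.05. After the GC and length correction, 5 of the 103 were higher and 16 lower past the test. Of all genes 15.9% then passed, 1121 higher and 926 lower. The median of the licensing partners was then 0.02. Those of the other lists stayed negative, from −0.29 for nucleotide supply to −0.03 for the turnover factors, against −0.004 for all genes.

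In the comparison averaged over both hairpins, 35 of the 103 fell and 3 rose. The genes that fell held 11 of the 23 replisome genes (PCNA, the sliding clamp, and RFC1, RFC3, RFC4 and RFC5, which load it, among them), 3 of the 15 helicase activation and fork factors (MTBP, GINS3 and WDHD1), 5 of the 7 nucleotide supply genes and 9 of the 12 proliferation and mitosis markers, and none of the 8 licensing partners. The genes that rose were CCND1, CCND3 and POLD4. Of all genes 11.0% passed with a lower and 19.3% with a higher level. With the GC and length correction 61 of the 103 fell and 5 rose, with 2 licensing partners among the former and 1 among the latter, and of all genes 22.6% fell and 22.7% rose.

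UHRF1 knockdown in HCT116 moved 0 of these 103 genes past the test, and 4 had an unadjusted p below 0.05 in limma. With the GC and length correction 5 rose and 0 fell. Of the 5 that rose 3 were CDK inhibitors and 2 E2F regulators or G1/S cyclins. Of all genes 3.26% then passed, 181 higher and 233 lower. In UF1hypo, where 13.3% of all genes passed, 4 rose and 1 fell. The genes that rose were CDK inhibitors CDKN2B at 1.28 (adjusted limma p 0.00411) and CDKN2A at 1.02 (adjusted limma p 0.0160), and CDK6 at 1.18 (adjusted limma p 0.0215) and CCND3 at 1.01 (adjusted limma p 0.0162). The gene that fell was CCNB2, a mitotic cyclin, at −0.79 (adjusted limma p 0.0178). With either UF1hypo shScr library left out, only CDKN2B of these 5 still passed. No licensing, activation or replisome gene passed with all libraries, but without UF1hypo shUHRF1 replicate 2 the counts were 5 of 8, 8 of 15 and 15 of 23, with 47.6% of all genes, and without replicate 1 they were 2, 0 and 1, with 19.4% of all genes. Their medians were −0.11 (7 of 8 negative, ORC2 −0.47, ORC3 −0.46), −0.16 (11 of 15, WDHD1 −0.62, CDC7 −0.41) and −0.22 (16 of 23, RPA3 −0.81, PRIM1 −0.64), against 0.04 for all genes. Nucleotide supply had a median of −0.25 (RRM1 −0.72), the turnover factors −0.17 (FZR1 0.67, DTL −0.28) and the MCM relatives −0.29 (MCM8 −0.42, MCM9 −0.29). After the GC and length correction 6 rose and 23 fell. Of all genes 30.9% then passed, 2178 higher and 2037 lower. The medians of the licensing, activation and replisome genes were then −0.07, −0.05 and −0.15, against −0.01 for all genes. Those of nucleotide supply, the turnover factors and the MCM relatives were −0.26, −0.002 and −0.25. Proliferation and mitosis markers were then at −0.31, E2F regulators and G1/S cyclins at −0.10 and CDK inhibitors at 0.12. For the contrast of the UF1hypo and HCT116 knockdown effects, 2 of the 103 were higher and 1 lower past the test, below the 5.22% of all genes. With the correction 3 were higher and 11 lower, when 16.2% of all genes passed, 1249 higher and 987 lower.

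The 10 genes did not all vary together across the 8 libraries. Pearson's r of a gene with the mean standardized profile of the other 9 was 0.86 for CDT1, 0.83 for MCM4, 0.81 for MCM2, 0.74 for MCM6 and CDC45, 0.73 for MCM7, 0.58 for MCM3 and 0.43 for MCM10, and it was 0.00 for CDC6 and −0.11 for MCM5. These values carry no test, since the 8 libraries fall into 4 groups. Among 11490 other protein-coding genes above 1 TPM in every library, those whose profile over the 8 libraries was most like the mean profile of the 10 were GREB1 (r 0.99), HAS3 (r 0.98) and NALF2, WNT3 and GJA3 (r 0.97 each), which are described by likeness only. GREB1 was at 4.67 and 4.18, 4.09 and 3.14, 1.49 and 1.61, and 2.20 and 1.39 TPM. Like the 10 genes on average, GREB1 was lower in the UF1hypo libraries than in the HCT116 libraries, which follows from how it was chosen.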

How the data were processed

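RNA of 8 libraries in 4 groups was analysed from the deposited StringTie tables, in which the authors give coverage (mean read coverage per base of a gene), FPKM (normalized by the authors for length and aligned bases) and TPM (normalized by the authors for length and to 1000000 per library). Per the labels and the study's methods, reads were trimmed with fastp, aligned to GRCh38 with HISAT2 2.0.4 and summarized with StringTie 2.1.4. The tables hold no counts, so counting error is unknown and DESeq2, the study's tool, was not run here; aligned bases were recovered as coverage over FPKM. Identifiers were matched to GENCODE version 44, repeated identifiers were summed, and second copies of pseudoautosomal genes were left out. log2(TPM + 1) of all 8 libraries entered 1 limma 3.58.1 fit (R 4.3.3; two-sided, variance trend on mean expression, tested on simulated data) with Benjamini-Hochberg adjustment over protein-coding genes above 1 TPM in at least 1 library of the comparison. A gene passed at an adjusted p of 0.05, and none of the 10 had an absolute log2 fold change above 1. Fold changes on this scale understate those of low genes. The text names all 10 genes, UHRF1, from each list and comparison up to 4 genes that passed with the largest change or, where none passed, the 2 with the largest change (in the text for the lines under shScr and for the knockdown in UF1hypo only, and by example for the averaged comparison), and the 5 genes of most similar profile, and 1 gene that this rule names is not reported here. The genes and lists were chosen with earlier results of these data known. Alternatives were the pseudocount (0.1), filters, FPKM, 2 scalings, library weights, the variance trend, the comparison's libraries alone, a replicate block, a GC and length correction (medians of each library in 10 bins of transcript GC and of length removed), and leaving out each library.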

Additional observations from a re-analysis of the deposited data

Results flagged for a closer look

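The difference between the UHRF1 knockdown effects in UF1hypo and in HCT116 was tested as an interaction in limma, and 3 genes of the 9 lists around the helicase passed with Benjamini-Hochberg adjustment, that is 3 of 103, while 5.22% of all genes passed. With the GC and length correction 3 of the 103 were higher and 11 lower past the test, while 16.2% of all genes passed, 1249 higher and 987 lower. CCND3, a G1 cyclin, had a difference of 1.38 on the log2 scale (SE 0.298, adjusted limma p 0.0363), with 33.1 and 40.4, 29.4 and 26.6, 59.4 and 59.3, and 147 and 98.9 TPM in the control and the knockdown of HCT116 and then of UF1hypo. CDKN2B, a CDK inhibitor, had a difference of 1.38 (SE 0.279, adjusted limma p 0.0284), with 7.12 and 6.62, 6.71 and 5.96, 4.62 and 4.23, and 13.3 and 11.1 TPM. CDKN1A, a CDK inhibitor and known p53 target, had a difference of −1.23 (SE 0.211, adjusted limma p 0.0148), with 285 and 307, 519.5 and 485, 426 and 455, and 357 and 283 TPM. Its values were higher under shUHRF1 in HCT116 and lower in UF1hypo. With any HCT116 library or any UF1hypo shScr library left out, none of the 3 differences passed (adjusted limma p 0.0689 to 0.175), and all 3 passed with either UF1hypo shUHRF1 library left out. None of the 10 helicase and licensing genes passed this test.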

How the results depend on the processing

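The knockdown in HCT116 gave 0 of the 10 genes past the test under every alternative run, and its median ran from −0.08 to 0.02 with 1 library left out. In UF1hypo 0 passed in the main comparison and 2 with the GC and length correction, without or with the replicate block. Of all 13620 genes 4215 passed with that correction alone and 3815 with the block as well. The median there was −0.17 with that correction and −0.06 to 0.02 with a library left out. For the difference of the effects the median, 0.10, was −0.011 under median-ratio scaling and −0.012 under quantile normalization. It was −0.044 with the GC and length correction, alone or with the block, and ran from 0.03 to 0.15 with a library left out. Without UF1hypo shUHRF1 replicate 2 the values of the 10 genes ran from −0.64 to 0.84. Between the lines, 0 became 4 with the comparison's libraries alone or with library weights, 3 with the GC and length correction and 2 with it and the replicate block. Of all 12856 genes tested 3077, 3627, 2047 and 1752 passed in these fits, in that order. Averaged over both hairpins 3 of the 10 passed, or 8 with the correction and 1 with the block. Of all 13781 genes 4186, 6244 and 3496 passed there. With the replicate block alone, 0 passed in all 4 main comparisons. With the block the differences of CCND3 and CDKN2B between the knockdown effects and the change of UHRF1 in UF1hypo no longer passed (adjusted limma p 0.0633, 0.0530 and 0.0669). The labels do not say whether same-numbered libraries were paired. The differences of replicate 2 from replicate 1 had Pearson r between −0.57 and 0.05 between groups. The lowest was between the UF1hypo groups, whose differences ran in opposite directions with GC content. These values cannot tell whether same-numbered libraries shared a preparation.

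In the knockdown in UF1hypo, leaving out a library gave −0.44 to 0.037 for MCM7, −0.70 to 0.11 for MCM10, −0.10 to 0.50 for CDC6, −0.32 to 0.23 for CDT1, −1.06 to 0.13 for ORC3, −1.15 to 0.32 for CDC7, −0.69 to 0.12 for DTL, −0.96 to 0.12 for MCM8 and −0.64 to 0.058 for MCM9. Averaged over both hairpins, MCM5 was at 0.10, with or without the block, and at −0.10 with the GC and length correction, and CDKN1A at −0.041 with or without it and −0.31 with the correction. The cause of these changes was not tested. With 2 libraries a group and no counts, effects below the confidence intervals could not be seen.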
